A study of Mus musculus with 70 samples.

Results

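Peptide hormones and neuropeptides are made as inactive precursors, and the 6 genes described here encode the proteins that cut and trim those precursors: *Pcsk1*, *Pcsk2*, *Cpe*, *Pam*, *Scg5* and *Pcsk1n*. They were chosen by name, for this shared function, and make up 6 of the 34677 genes in the gene-level table of TPM, the share of a gene among all transcripts of a library. TPM is scaled for transcript length and to the same total in every library, so levels can be set side by side between genes. All 6 were listed in each of 70 libraries and all 6 passed the filter on low counts.

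The libraries came from mice labelled C57BL/6 (C57BL/6NTac for the adults and embryos in the study methods) and from stem cells of that strain. The mice had no treatment or genetic change. The adult set (male, P56) held 57 libraries of punch biopsies from 18 brain regions. Of these, 14 libraries were from 5 hypothalamic nuclei: arcuate (ARH), ventromedial (VMH), dorsomedial (DMH), paraventricular (PVH) and lateral hypothalamic area (LHA). The other 43 were from 13 regions: nucleus accumbens (ACB), ventral tegmental area (VTA), frontal pole (FRP), anterior cingulate (ACA) and entorhinal (ENT) cortex, parabrachial nucleus (PB), nucleus of the solitary tract (NTS), dorsal-vagal complex (DVC), cerebellar nuclei (CBN), and the cerebellar lobules CENT2, CUL4-5, UVU and FL. The embryonic set (E14.5) held 9 libraries: 3 of the terminal and peduncular hypothalamus (THy-PHy), 1 of the forebrain (F), 2 of the midbrain (M) and 3 of the hindbrain (H). A further 4 libraries came from 2 embryonic stem cell clones, mESC B6-1 and mESC B6-2, grown off their feeder cells. Per the study methods, their medium held leukemia inhibitory factor and added inhibitor compounds. Adult and embryonic libraries were made from tissue pooled over several mice, except 1 ACB library from 1 mouse, so p-values measure the spread between pools. The study used fewer mice than the pools would need if none were shared, so libraries of different regions share animals, and the tests over libraries and over regions treat them as independent. Each adult region had 2 to 4 libraries.

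Total counts ran from 9074580 to 22229582 per library, with a median of 17016934. Mitochondrial genes took 39.6% of the TPM of VTA replicate 1, against a median of 7.49%, and 22.6% in H replicate 1, which also had the lowest total. On TPM all members were low in VTA replicate 1 relative to the other VTA libraries. On counts *Pcsk1* was highest there (1026, against 830 and 900), and the other members were lowest there. Summed over 5 hypothalamic markers (Nkx2-1, Sim1, Otp, Rax, Nr5a1), TPM was 14.6 to 177 in the hypothalamic libraries and 0.0844 to 13.7 in the other adult libraries, and all 5 markers were called higher in the hypothalamus. In bulk tissue, fewer cells of a type and less RNA per cell cannot be told apart.

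As background, prohormones are cut at paired basic residues by the convertases PC1/3 (*Pcsk1*) and PC2 (*Pcsk2*) in the late secretory pathway and its granules. Carboxypeptidase E (*Cpe*) then removes the exposed basic residues, and peptidylglycine alpha-amidating monooxygenase (*Pam*) turns a C-terminal glycine into the amide that many neuropeptides need for activity. 7B2 (*Scg5*) is the chaperone that PC2 requires to become active, and proSAAS (*Pcsk1n*) is a granin-like precursor whose product inhibits PC1/3. Loss of PC1/3 or of carboxypeptidase E is known to cause obesity, since hypothalamic precursors such as pro-opiomelanocortin are then not matured.

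The 6 members together took the largest share of all TPM in PVH (0.361%), DMH (0.351%), ENT (0.328%) and ARH (0.323%), and the smallest adult share in CUL4-5 (0.146%). In THy-PHy the share was 0.0921%. *Cpe* supplied 45.7% to 66.9% of this sum in every brain group, whereas in the stem cells *Pam* supplied 97.7% of it in mESC B6-1 and 97.8% in mESC B6-2. The fold between the highest and the lowest adult region mean was widest for *Pcsk1* (7.08), followed by *Pcsk1n* (5.18), *Pcsk2* (4.84), *Pam* (4.34), *Cpe* (2.78) and *Scg5* (2.15).

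**Figure D1:**
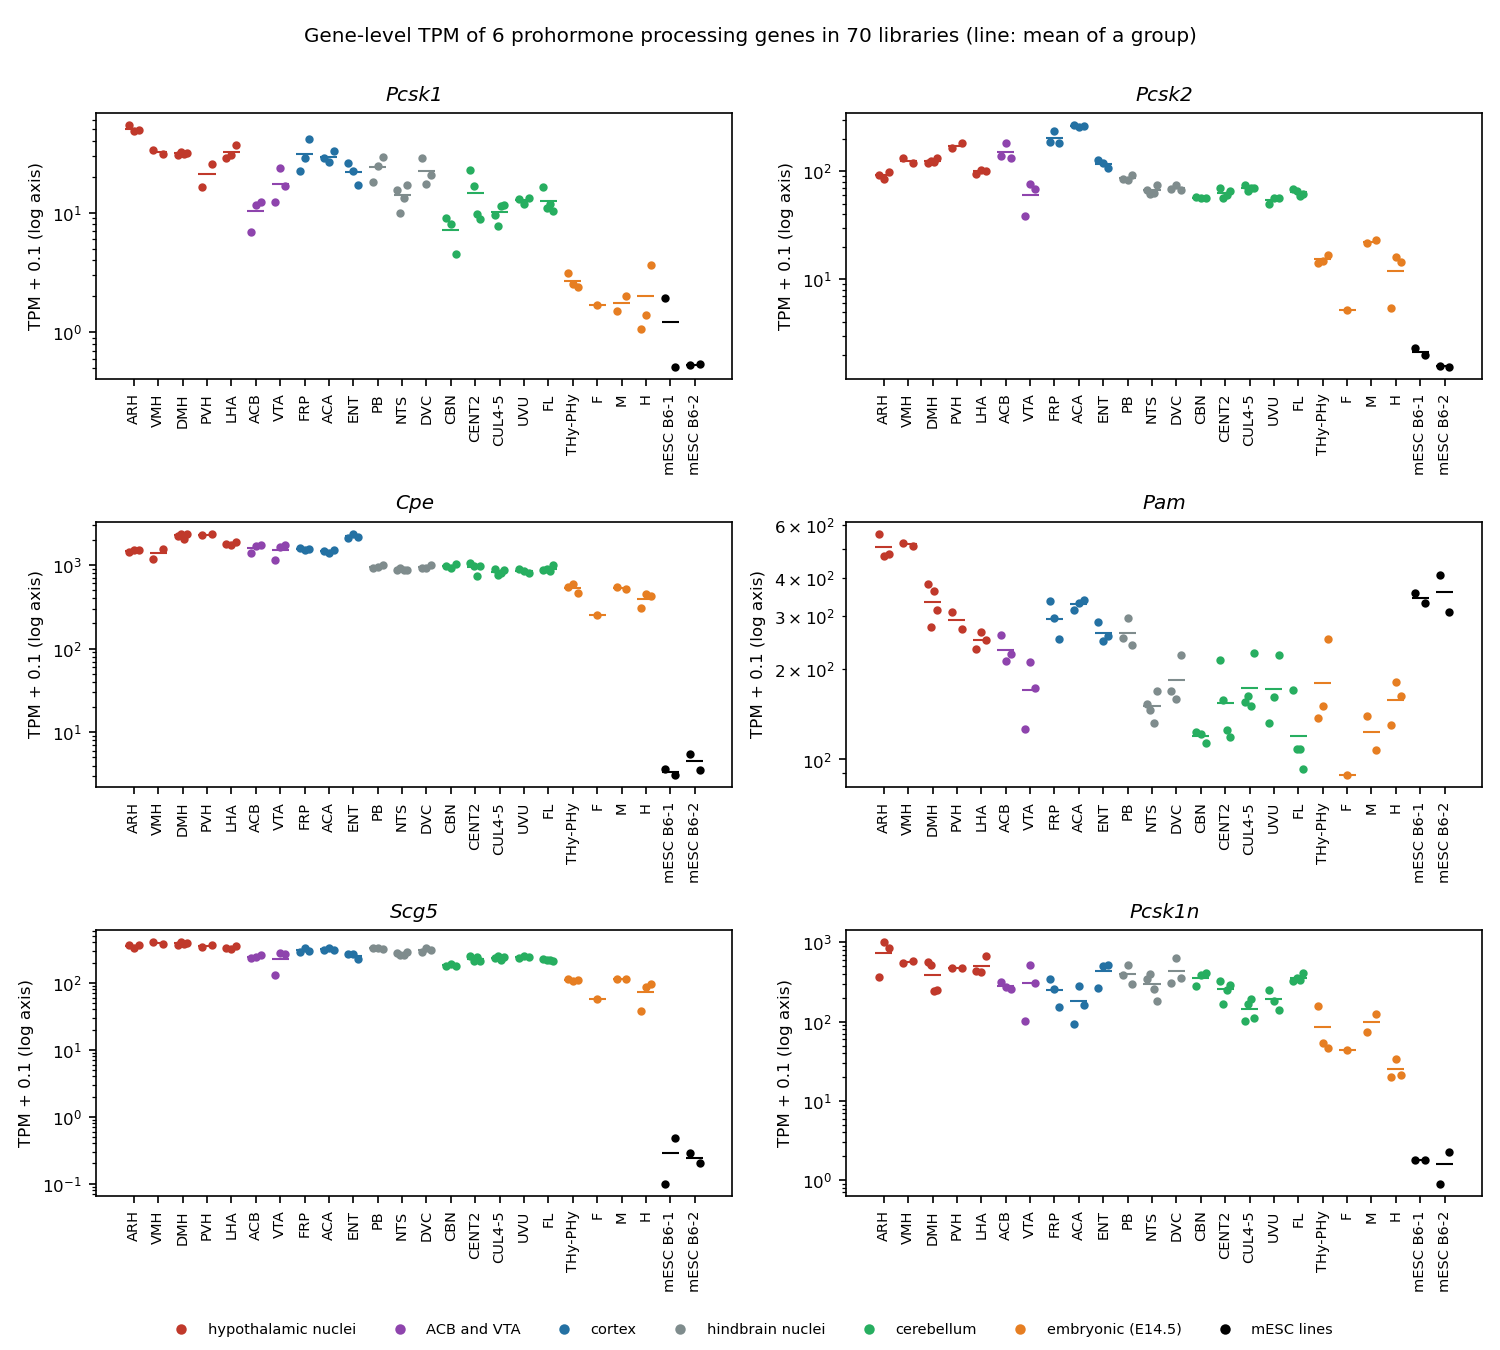
TPM plus 0.1 (log axis) of each of the 6 genes in all 70 libraries, with 1 point per library and a line at the mean of each of the 24 groups. Adult groups lie above embryonic groups for *Pcsk1*, *Pcsk2*, *Cpe*, *Scg5* and *Pcsk1n*, and stem cells lie lowest except for *Pam*, where they sit at 309 to 408 TPM.

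*Pcsk1* (ENSMUSG00000021587.5, chr13:75089826-75134861, + strand, GRCm38) was highest in ARH, where its TPM was 53.9, 48.1 and 49.2 in the 3 libraries (50.4 ± 3.07, SD, n = 3). VMH followed with 33.6 and 30.6 TPM, LHA with 28.5, 30.3 and 36.8, and DMH with 30.5, 31.9, 30.7 and 31.7. The lowest ARH library therefore lay above the highest library of any other hypothalamic nucleus. The step from ARH to VMH was 18.3 TPM against summed SDs of 5.21, and the next steps down the order, from VMH through LHA, DMH, FRP and ACA, were all within their spread. Only 2 of the 23 steps between neighbouring groups exceeded their summed SDs, the other being that from CBN to THy-PHy. A further 2 steps, to and from F with its 1 library, could not be compared. At the bottom of the adult order stood ACB, with 6.82, 11.5 and 12.3 TPM, CUL4-5, and CBN, with 9.01, 7.88 and 4.45 TPM. FRP libraries were spread from 22.1 to 41.4 TPM, so that the place of FRP in the order was poorly fixed.

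*Pcsk2* (ENSMUSG00000027419.9, chr2:143546156-143816285, + strand) had another order, with cortex first. Its TPM was 268, 255 and 262 in ACA (261 ± 6.35) and 186, 237 and 183 in FRP (202 ± 30). PVH followed with 163 and 181 TPM, and then ACB with 139, 183 and 133 TPM. Every ACA library lay above every library of another region, and the step from ACA to FRP (59.3 TPM) exceeded the summed SDs of 36.4. All 3 FRP libraries lay above those of PVH and ACB, which overlapped each other. ARH, which led for *Pcsk1*, was ninth for *Pcsk2* at 91.4, 84.1 and 98.7 TPM. UVU was lowest of the adult regions at 49.4, 56.4 and 56.2 TPM.

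The start-site windows of both convertases are shown because the genes differed in their order over regions while *Pcsk1* and *Scg5*, whose window is added, were close to each other (r = 0.864 over the 18 adult region means). Each window is RefSeq sequence of GRCm38.p6, from 250 bases before to 50 bases after the annotated start, written 5′ to 3′ on the strand of the gene. Capitals mark matches on either strand to 6 motifs. The cyclic AMP response element (CRE) was searched as TGACGTCA and its half-site as TGACG. The GC box was searched as GGGCGG and the AP-1 site as TGACTCA. The remaining motifs were the CCAAT box, searched by those letters, and the TATA box, searched as TATAAA. A CRE match holds 2 overlapping half-site matches.
Pcsk1, chr13:75089607-75089906, + strand: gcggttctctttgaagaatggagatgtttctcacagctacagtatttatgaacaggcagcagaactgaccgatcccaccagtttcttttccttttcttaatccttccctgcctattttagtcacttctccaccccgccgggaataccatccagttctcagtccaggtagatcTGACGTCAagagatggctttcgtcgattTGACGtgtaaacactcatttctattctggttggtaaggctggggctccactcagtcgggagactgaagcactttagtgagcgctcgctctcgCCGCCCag
Scg5, chr2:113829042-113829341, − strand: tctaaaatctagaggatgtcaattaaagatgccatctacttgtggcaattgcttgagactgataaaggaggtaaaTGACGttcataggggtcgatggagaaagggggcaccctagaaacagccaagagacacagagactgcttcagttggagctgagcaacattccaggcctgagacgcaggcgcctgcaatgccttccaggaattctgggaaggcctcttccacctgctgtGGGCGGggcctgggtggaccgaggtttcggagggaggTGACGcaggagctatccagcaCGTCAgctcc
Pcsk2, chr2:143545883-143546182, + strand: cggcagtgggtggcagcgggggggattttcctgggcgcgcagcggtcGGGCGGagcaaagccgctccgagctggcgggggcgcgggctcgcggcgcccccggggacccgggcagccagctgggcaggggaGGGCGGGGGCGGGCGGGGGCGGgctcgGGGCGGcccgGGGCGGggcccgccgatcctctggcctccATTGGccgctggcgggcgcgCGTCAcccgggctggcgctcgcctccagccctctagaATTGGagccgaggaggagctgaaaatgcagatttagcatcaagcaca

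The *Pcsk1* window held 1 CRE, starting 78 bases before the start site, a further half-site at 50 bases before it, and 1 GC box. Of 32851 windows of this length, 1.79% held the CRE and 20.8% the half-site. The *Scg5* window held 3 half-sites and 1 GC box but no CRE. The *Pcsk2* window was GC-rich (76.3%, against a median of 52.7% over all windows), with 36 CG dinucleotides. It held 7 GC boxes (present in 35.7% of windows), 2 CCAAT boxes (in 37.4%) and also 1 CRE half-site. GC content was 49.3% for *Pcsk1* and 54% for *Scg5*. Of the other members, both *Pam* windows were GC-rich (77.3% and 76.3%), with 3 GC boxes and no CRE half-site. Over region means *Pam* was also close to *Pcsk1* (r = 0.845) and *Scg5* (r = 0.854). The *Pcsk1n* window had 1 GC box and 1 AP-1 site (in 5.2% of windows). TATAAA, present in 13.6% of all windows, was found in none of the members' windows. *Cpe* had no entry. Matches are letters only and were not tested as sites.

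The ratio of *Pcsk2* to *Pcsk1* TPM within a library set the regions apart. In ARH it was 1.82 ± 0.168 (n = 3), with all 3 libraries between 1.7 and 2.01, below every other adult library, the nearest being a DVC library at 2.4. LHA (3.15), VMH (3.91) and DMH (3.99) were also low, whereas PVH had 7.11 and 9.96. Outside the hypothalamus DVC (3.32), VTA (3.49) and PB (3.77) lay below VMH and DMH. ACA reached 8.96 ± 0.914 and ACB 15.7 ± 4.77, the highest of the adult groups. Averaged over the 5 hypothalamic nuclei the log2 ratio was 1.9, against 2.5 over the other 13 regions. The difference of −0.59 was within the spread of regions by an exact permutation test over all choices of 5 of the 18 regions (two-sided p = 0.116, adjusted p = 0.349 over 3 ratios). PVH lay above the mean of the other regions and the remaining 4 nuclei below it.

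**Figure D2:**
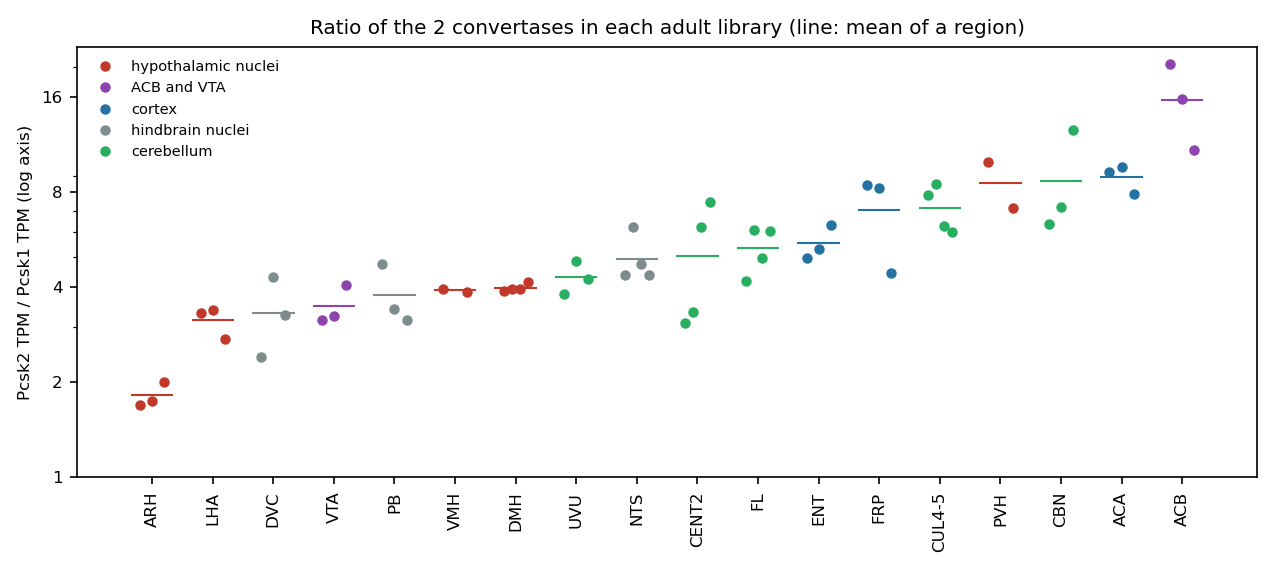
*Pcsk2* TPM divided by *Pcsk1* TPM in each of the 57 adult libraries (log axis, 1 point per library, regions ordered by their mean). The 3 ARH libraries lie between 1.7 and 2.01, below all others, and the ACB libraries reach 20.4.

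*Cpe* (ENSMUSG00000037852.8, chr8:64592542-64693054, − strand) was the most abundant member in every brain group. It was 2258 and 2339 TPM in PVH, 2235, 2364, 2051 and 2329 in DMH, and 2089, 2310 and 2177 in ENT. These 3 regions overlapped one another, and all their libraries lay above those of the remaining 15 adult regions. The step from ENT down to LHA (1785 ± 65.9) exceeded the summed SDs. ARH (1483) stood below VTA and FRP, and the hindbrain and cerebellar regions formed a lower tier between 828 and 971 TPM. In that tier the CUL4-5 libraries were at 891, 764, 797 and 861 TPM. The spread within a region was small, with a median coefficient of variation of 5.13%.

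*Pam* (ENSMUSG00000026335.16, chr1:97795114-98095646, − strand) was highest in VMH (522 and 513 TPM) and ARH (562, 475 and 481 TPM). The libraries of these nuclei overlapped, and all 5 lay above every other library of the series. The stem cells were next, at 357 and 331 TPM in mESC B6-1 and 408 and 309 in mESC B6-2, above DMH (383, 275, 363 and 314 TPM) on average. CBN was the lowest adult region, at 123, 122 and 113 TPM.

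The estimated *Pam* levels were split differently over its transcripts in different tissues. With single short reads, the split between transcripts that share bases is an estimate. Transcript Pam-208, a processed transcript of 415 bases with 2 exons and no coding sequence of its own, held 21.9% of *Pam* TPM in the hypothalamus, 41.4% in the other adult regions, 62.1% in the embryo and 97.8% in the stem cells. TPM is scaled for length, so this short transcript weighed less in counts, from 1.43% of the *Pam* counts in ARH to 25.9% in UVU and 80.1% in mESC B6-1. Exon 1 (149 bases) lies wholly in coding sequence of the long transcript Pam-201. Of exon 2, the first 54 bases are coding in Pam-201 and the other 212 lie in the intron that follows, and the exon is shown because part of it is not unique to *Pam*. Capitals mark the 136 bases covered by 31-base words that also occur in transcripts of other genes.
Pam-208 exon 2, chr1:97822724-97822989, − strand: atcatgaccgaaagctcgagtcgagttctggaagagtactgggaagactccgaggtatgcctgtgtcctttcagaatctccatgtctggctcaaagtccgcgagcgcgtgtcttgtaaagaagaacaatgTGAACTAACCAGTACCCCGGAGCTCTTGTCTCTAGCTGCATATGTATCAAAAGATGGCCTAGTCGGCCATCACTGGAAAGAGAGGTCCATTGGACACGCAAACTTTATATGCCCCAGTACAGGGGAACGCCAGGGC

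In all, 85 of the 385 words of Pam-208 (22.1%) were shared with transcripts of 201 other genes, all within its bases 280 to 415. *Pcsk1*, *Cpe* and *Scg5* transcripts shared 0 words. The part of these shared words in the estimates was not tested, and *Pam* results are given with and without this transcript, a choice made after the values were seen. Without it *Pam* was 435 ± 55.5 TPM in ARH (387 to 496), 404 ± 0.169 in VMH, 253 in DMH and 239 in ACA. The cerebellar lobules then fell in the order to between 36.4 (UVU) and 58.1 TPM (CENT2), and the stem cells moved from just below ARH to the last places, at 7.99 TPM in mESC B6-2 and 7.36 in mESC B6-1.

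**Figure D3:**
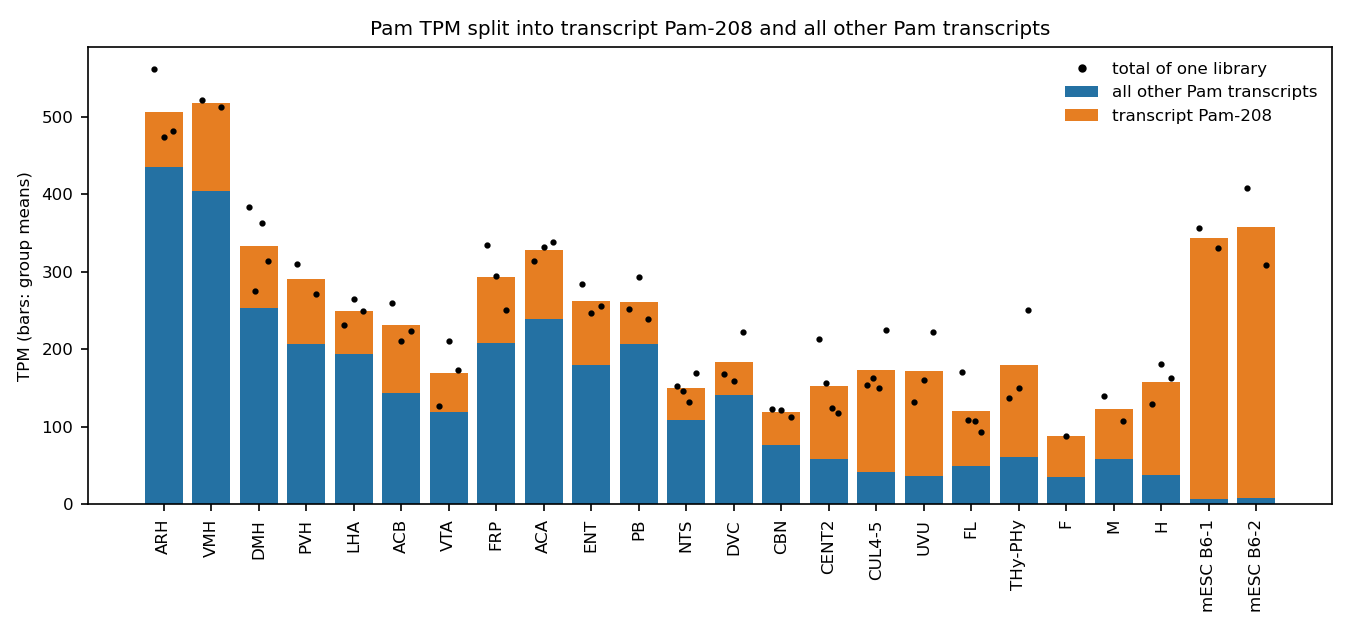
*Pam* TPM by group, with bars at group means split into transcript Pam-208 and all other *Pam* transcripts, and a dot for the total of each library. In the mESC groups nearly the whole bar is Pam-208 (97.8% of *Pam* TPM), whereas in the hypothalamic nuclei it is 21.9%.

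The share of single transcripts in all *Pam* TPM, Pam-208 included, was compared between the hypothalamus and the other adult regions. Pam-208, at 21.9% against 41.4%, differed by −19.5 points and did not pass (two-sided exact permutation p = 0.0391, adjusted p = 0.137). A lower share of 1 transcript raises the shares of the rest, so the Pam-201 difference is not separate from that of Pam-208. Pam-201, which codes for the full-length enzyme, held 39.9% ± 1.05 of *Pam* TPM in the 5 nuclei and 25.8% ± 10.2 in the other 13 regions. The difference of 14.1 points had an exact permutation p of 0.00817 (two-sided, all groupings of 5 of the 18 regions) and an adjusted p of 0.0572 over the 7 transcripts tested, and so did not pass. Without the cerebellar regions the other regions held 32.9%, and the difference of 7.01 points passed, with an adjusted exact permutation p of 0.0218. For *Cpe* (Cpe-201, 81.4% of adult TPM, and Cpe-202) and *Pcsk1* (Pcsk1-201, 77%, and Pcsk1-203) the exact permutation p-values were at least 0.584. *Pcsk2*, *Scg5* and *Pcsk1n* came almost wholly from 1 transcript each in the adult (99.4%, 98% and 100%).

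*Scg5* (ENSMUSG00000023236.7, chr2:113776362-113829121, − strand) was the most even member. It was 405 and 378 TPM in VMH, 371, 402, 381 and 390 in DMH, 368, 335 and 370 in ARH, 347 and 364 in PVH, and 327, 324 and 352 in LHA. The 5 hypothalamic nuclei held the first 5 places, but PB (331, 327 and 324 TPM) overlapped LHA, and no step among the first 17 adult regions exceeded the spread. CBN was lowest at 180, 189 and 178 TPM, below FL beyond their summed SDs. The ratio of *Scg5* to *Pcsk2*, chaperone to convertase, was lowest in ACA (1.22 ± 0.0802) and FRP (1.53) and highest among adult regions in UVU (4.53 ± 0.253). In ARH it was 3.92 and in THy-PHy 7.25 ± 0.756. Between the hypothalamus and the other adult regions this log2 ratio differed by 0.08 (exact permutation p = 0.813, two-sided).

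*Pcsk1n* (ENSMUSG00000039278.10, chrX:7919822-7924410, + strand) was the member with the largest spread between libraries of the same region. Its median coefficient of variation within adult regions was 30.3%, above that of 98.5% of 785 genes of like level. In ARH, where its mean was highest, the 3 libraries were at 365, 1008 and 841 TPM. VMH had 545 and 579, LHA 436, 417 and 669, PVH 477 and 477, and DMH 557, 514, 244 and 252. The libraries of ARH therefore overlapped those of VMH, LHA, PVH and DMH, and within the adult order no step from 1 region to the next exceeded its spread. CUL4-5 was lowest at 101, 166, 192 and 110 TPM. The ratio of *Pcsk1n* to *Pcsk1* ran from 6.31 in ACA to 57.2 in CBN and did not differ detectably between the hypothalamus and the other adult regions (−0.13 on the log2 scale, exact permutation p = 0.729, two-sided). Bases 2059 to 2193 of the only *Pcsk1n* transcript share words with *Eras* on the opposite strand, and the strand setting of the counting is not given in the sources used here.

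The first comparison asked whether the processing genes are higher in the hypothalamus than in the rest of the adult brain. All 6 were higher on average, by between 1.26-fold for *Pcsk2* and 2.47-fold for *Pam*, and 1 of 6 (*Pam*) passed both the test and the 2-fold limit. Of the 19980 genes tested, 6.11% passed both limits in this direction and 26.9% passed the test at any fold. The libraries of the hypothalamus and of the other regions overlapped for each member, whereas 0.119% of genes had every hypothalamic library above all others. *Pam* ran from 232 to 562 TPM (median 338) in 14 hypothalamic libraries and from 93.2 to 339 (median 171) in 43 others. *Pcsk1* ran from 16.3 to 53.9 (median 31.2) against 4.45 to 41.4 (median 15.4), and *Cpe* from 1183 to 2364 (median 1806) against 744 to 2310 (median 967).

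By the quasi-likelihood test of edgeR, in which each region had equal weight, *Pam* was higher by 1.31 ± 0.06 (log2 fold change ± SE, adjusted p = 1.18e-23), and by 1.40 ± 0.07 without Pam-208. *Pcsk1* followed at 0.89 ± 0.07 (edgeR adjusted p = 1.85e-15), then *Pcsk1n* at 0.79 ± 0.15, *Cpe* at 0.59 ± 0.03, *Scg5* at 0.41 ± 0.04 and *Pcsk2* at 0.34 ± 0.05 (edgeR adjusted p of 4.28e-07 or lower except *Pcsk1n*, 1.04e-05). Here and in the later edgeR comparisons, SEs and p-values measure the spread between libraries of the same region, not the spread between regions. Over region means *Pcsk2* was 122 ± 31.3 TPM (SD) in the 5 nuclei and 102 ± 65 in the other 13 regions. The scale and the choice of comparison regions moved the calls. On log2(TPM + 0.5) with limma *Pam* was at 0.93, under 2-fold, and *Pcsk1* at 1.01, so that the member called was *Pcsk1*. Without the 5 cerebellar regions, *Pam* was at 0.69 in edgeR, no member reached 2-fold, and *Pcsk2* was at −0.07 (edgeR adjusted p = 0.404). Summed TPM of 7 neuronal markers was 2648.5 to 4326 in the hypothalamic and 3121 to 6658 in the other adult libraries, with 2 of 7 called lower in the hypothalamus; the part of neuron content in these differences was not tested.

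Region by region, each adult region was set against the mean of the other 17 in the same edgeR model, which gave 108 pairs of member and region that share libraries. Of these 16 passed, 6 higher and 10 lower, where 10.9% of all pairs of gene and region passed (6.53% higher and 4.33% lower). Higher were *Pcsk2* in ACA (3.08-fold) and FRP (2.29-fold), *Pam* in ARH (2.99-fold) and VMH (2.72-fold), and *Pcsk1* (2.59-fold) and *Pcsk1n* (2.12-fold) in ARH. The call of *Pcsk1n* in ARH rested on 2 of its libraries: the log2 fold change of 1.09 was 0.75 without ARH replicate 2 and 1.00 without replicate 3. Lower were *Pam* in all 4 cerebellar lobules (log2 fold changes of −1.27 in CENT2, −1.43 in FL, −1.69 in CUL4-5 and −1.87 in UVU), *Pcsk1* in CBN (−1.60), ACB (−1.03) and CUL4-5 (−1.02), *Pcsk1n* in CUL4-5 (−1.47) and UVU (−1.01), and *Pcsk2* in UVU (−1.03). Without Pam-208 the same 6 *Pam* calls held, between −2.22 in UVU and 1.66 in ARH, whereas on log2(TPM + 0.5) of all transcripts with limma *Pam* was at −0.46 in UVU, −0.43 in CUL4-5 and −0.64 in CENT2, which were not called. No region was called for *Cpe* or *Scg5*; the *Cpe* values ran from −0.84 in CUL4-5 to 0.90 in ENT.

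Within the hypothalamus, the ARH, which holds the pro-opiomelanocortin and agouti-related peptide neurons, was compared with the other 4 nuclei. *Pcsk1* (0.81 ± 0.15, 1.76-fold) and *Pam* (0.69 ± 0.14, 1.61-fold) were higher in ARH, and *Pcsk2* (−0.55 ± 0.12) and *Cpe* (−0.44 ± 0.08) were lower, with edgeR adjusted p-values of 2.86e-05, 0.000121, 0.00032 and 1.15e-05. None of the 6 reached 2-fold, whereas 6.9% of all genes passed both limits in either direction; at any fold 13.3% of genes were higher and 10.3% lower. *Pcsk1* was the only member whose ARH libraries all lay above those of the other nuclei, as did 9.14% of genes. *Pcsk1n* was at 0.57 (edgeR adjusted p = 0.207), with its ARH libraries spread from 365 to 1008 TPM, and *Scg5* at −0.10 (edgeR adjusted p = 0.427).

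Markers of other cells also differed in the ARH punches. The summed TPM of 9 pituitary markers was 84.5 to 131 in ARH and 1.94 to 18.8 in the other nuclei, and 5 of 9 were called higher; *Fshb* was under 0.1 TPM in all 11 libraries of the other nuclei. All 5 tanycyte markers were called higher in ARH (119 to 188 against 16.4 to 26 TPM summed) and all 6 oligodendrocyte markers lower (978 to 1638 against 1513 to 13773.5). Summed neuronal markers were 2648.5 to 2910 TPM in ARH and 3174 to 4326 in the other nuclei, and summed endothelial markers 79.5 to 84.3 against 90.7 to 131, without overlap, although 0 of these 12 genes were called singly. Pituitary endocrine cells also process prohormones, and the part of these cells in the ARH values of *Pcsk1* and *Pam* was not tested.

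Cerebral and cerebellar cortex differed more. In FRP, ACA and ENT together, *Pam* was 4.23-fold, *Pcsk2* 3.43-fold, *Pcsk1* 2.74-fold and *Cpe* 2.2-fold higher than in the lobules CENT2, CUL4-5, UVU and FL, so that 4 of 6 members were called, where 12.4% of all genes were called higher. Mean TPM over regions was 295 against 155 for *Pam*, 194 against 62.6 for *Pcsk2*, 27.3 against 12.3 for *Pcsk1* and 1726 against 875 for *Cpe*. For *Pcsk2*, *Cpe* and *Pam* every cortical library lay above every lobule library, as did 9.75% of genes. The log2 fold changes were 2.08 ± 0.09 for *Pam*, 1.78 ± 0.07 for *Pcsk2*, 1.46 ± 0.10 for *Pcsk1* and 1.13 ± 0.05 for *Cpe* (edgeR adjusted p of 1.5e-18 or lower). *Scg5* (0.53 ± 0.05) and *Pcsk1n* (0.49 ± 0.21, edgeR adjusted p = 0.0367) were higher by less than 2-fold, where 31.2% of genes passed at any fold. *Pcsk1n* did not pass with the replicate number as a block (0.41, edgeR adjusted p = 0.0841), with limma on log2(TPM + 0.5) (0.21, adjusted p = 0.465) or without ACA replicate 2 (0.32, edgeR adjusted p = 0.192). On log2(TPM + 0.5) with limma, *Cpe* (0.96) and *Pam* (0.97) were below 2-fold; without Pam-208 the *Pam* fold in edgeR was 4.95. All 6 oligodendrocyte markers and all 4 granule cell markers were called lower in the cerebral cortex (granule cell markers 13.2 to 46.2 against 1078 to 2990.5 TPM summed), and their part in the differences was not tested.

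**Figure D4:**
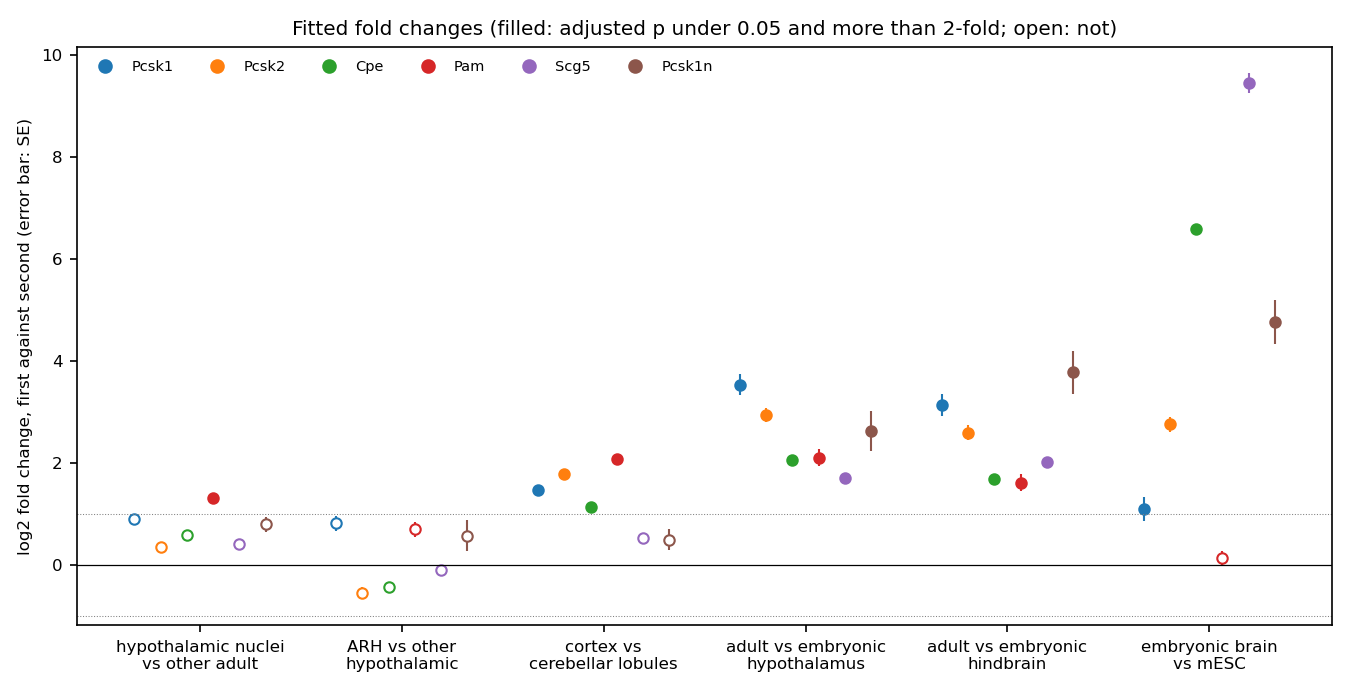
Log2 fold change with its SE for each of the 6 genes in 6 comparisons, from the edgeR fit to estimated counts, with filled points past both limits and open points not. All 6 points are filled for adult against embryonic hypothalamus and hindbrain, 4 for cortex against cerebellar lobules, 5 for embryonic brain against mESC, 1 (*Pam*) for hypothalamic nuclei against other adult regions and none for ARH.

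Between E14.5 and adulthood every member was higher at the later stage, in the hypothalamus and in the hindbrain. In THy-PHy, *Pcsk1* was at 3.01, 2.44 and 2.3 TPM and *Pcsk2* at 14, 14.8 and 16.8, against lowest adult hypothalamic libraries of 16.3 and 84.1 TPM. *Cpe* was at 540, 588 and 455 TPM, *Scg5* at 112, 106 and 110, and *Pcsk1n* at 158, 54 and 46.9. For these 5 genes every adult hypothalamic library lay above every THy-PHy library, as did 25.5% of all genes. *Pam* overlapped, with 138, 150 and 251 TPM in THy-PHy against a lowest adult library of 232.

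In the hypothalamus the fold was 11.5 for *Pcsk1*, 7.66 for *Pcsk2*, 6.14 for *Pcsk1n*, 4.28 for *Pam*, 4.18 for *Cpe* and 3.26 for *Scg5* (edgeR adjusted p of 4.04e-08 or lower). All 6 members were called, where 20% of all genes were called higher in the adult. Without Pam-208 the *Pam* fold was 5. In the hindbrain (NTS, DVC and PB against H) it was 13.6 for *Pcsk1n*, 8.74 for *Pcsk1*, 6.01 for *Pcsk2*, 4.02 for *Scg5*, 3.2 for *Cpe* and 3.05 for *Pam* (edgeR adjusted p of 3.25e-11 or lower), with all 6 called against 21.1% of genes. Every adult library of these regions lay above every H library for each member but *Pam*, as did 27.9% of genes. *Pam* in the hindbrain passed on counts but not on log2(TPM + 0.5) with limma, where it was at 0.29 (adjusted p = 0.123). H replicate 1 was the lowest of its group for *Pcsk1*, *Pcsk2*, *Cpe*, *Pam*, *Scg5* and *Pcsk1n*, and leaving out each library in turn left all 6 members called in both comparisons.

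The glial markers rose over the same interval. In the hypothalamus all 6 oligodendrocyte markers (978 to 13773.5 against 44.4 to 58.5 TPM summed) and all 6 astrocyte markers (760 to 1020 against 128 to 152) were called higher in the adult, and 4 of 7 neuronal markers were called higher and 1 lower. The part of cell composition in the members' change was not tested. Batches were listed by region and not by library, so age and preparation cannot be told apart.

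The size of the age change was compared between hypothalamus and hindbrain as an interaction. No member passed both the test and the 2-fold limit, as 9.84% of genes did. *Cpe* changed more in the hypothalamus, by 0.39 ± 0.10 on the log2 scale (edgeR adjusted p = 0.00373), and *Scg5* changed more in the hindbrain, by −0.30 ± 0.12 (edgeR adjusted p = 0.0496). The *Scg5* value was −0.10 without H replicate 1 (edgeR adjusted p = 0.541), and with limma on log2(TPM + 0.5) it was −0.43 (adjusted p = 0.15). At any fold 15.1% of genes passed with a larger and 15.3% with a smaller value in the hypothalamus. *Pcsk1n* was at −1.15 ± 0.47 (edgeR adjusted p = 0.0561), and with the replicate number as a block at −1.22 (edgeR adjusted p = 0.0374). *Pam* was at 0.49 (0.0619 adjusted in edgeR), *Pcsk1* at 0.40 and *Pcsk2* at 0.35, and none of these passed in this fit. With limma on log2(TPM + 0.5) *Pam* was at 0.77 (adjusted p = 0.0162), and without H replicate 1 *Pcsk2* was at 0.60 (edgeR adjusted p = 0.00147). Both age changes use separate libraries, but the hypothalamic libraries are also those of the comparison with other adult regions.

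Among embryonic regions, none of the 6 members differed by more than 2-fold between THy-PHy and the mean of M and H, where 3.18% of genes did. *Pcsk1* was 1.71-fold higher in THy-PHy (log2 fold change 0.77 ± 0.22, edgeR adjusted p = 0.0187), a direction in which 4.26% of genes passed at any fold. On log2(TPM + 0.5) with limma it was at 0.50 (adjusted p = 0.476), and in edgeR it was at 0.63 (adjusted p = 0.139) without M replicate 1, 0.62 (0.151) without THy-PHy replicate 2 and 0.69 (0.0971) without THy-PHy replicate 3, so the pass rested on the scale and on single libraries. Its TPM was 2.3 to 3.01 in THy-PHy, 1.41 and 1.92 in M, and 0.971, 1.29 and 3.52 in H, so the THy-PHy and H libraries overlapped. The remaining 5 members had edgeR adjusted p-values of 0.057 (*Scg5*) or higher.

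The last comparison set the embryonic brain against the stem cells. Tissue and culture, and the methods of RNA extraction, also differed between them and cannot be told apart from stage. *Scg5* was at 0 and 0.376 TPM in mESC B6-1 and 0.187 and 0.105 in mESC B6-2, on 0, 2, 1 and 1 counts. Against 8453 counts in the 9 embryonic libraries, 4 counts in the 4 stem cell libraries gave a ratio of rates of 963.1 (exact 95% interval 376 to 3535.5, counting error only). *Cpe* was 2.98 to 5.44 TPM in the stem cells and 255 to 588 in the embryo, 96.5-fold apart, and *Pcsk1n* 0.805 to 2.2 against 19.9 to 158 TPM, 27-fold apart. For *Pcsk2*, *Cpe*, *Scg5* and *Pcsk1n* every embryonic library lay above every stem cell library, as did 32.7% of genes.

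By edgeR, 5 of 6 members were called higher in the embryonic brain, against 29% of all genes. The log2 fold changes of *Cpe* (6.59 ± 0.10), *Pcsk1n* (4.76 ± 0.44), *Pcsk2* (2.75 ± 0.14) and *Pcsk1* (1.09 ± 0.24) all passed, with edgeR adjusted p-values of 4.32e-05 or lower. For *Pcsk1*, whose stem cell libraries held 31, 26, 27 and 20 counts, the value was 1.00 without M replicate 2. In the stem cells 97.5% of *Pcsk2* TPM came from its processed transcript, which shares 11.7% of its words with 369 other genes. Without it *Pcsk2* was at 0.0351 TPM in mESC B6-1 and 0.0444 in mESC B6-2, on 10 counts in all, and the ratio of rates was 257.7 (exact 95% interval 140 to 537.7).

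*Pam* was the exception. On all its transcripts it was not called by edgeR (log2 fold change 0.12 ± 0.14, adjusted p = 0.428), and on TPM every stem cell library lay above every embryonic library, as did 23.5% of genes. Without Pam-208 it was 4.48-fold higher in the embryonic brain (2.16 ± 0.18, edgeR adjusted p = 8.23e-16). Pam-208 alone was at 337 ± 17.8 TPM in mESC B6-1 and 351 ± 71.4 in mESC B6-2, against 78 TPM in the adult hypothalamus. The stem cells held 4641 to 4989 TPM of 6 pluripotency markers, against 2.21 to 19.5 in the embryonic libraries, and 195 to 234 TPM of the 7 neuronal markers, against 1099.6 to 3288.5.

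Over the 18 adult regions the members varied together to different degrees. On region means of log2(TPM + 1), *Pcsk1* and *Scg5* had r = 0.864 (Spearman rho 0.851), *Pam* and *Scg5* 0.854 (0.872) and *Pcsk1* and *Pam* 0.845, and without the 2 regions farthest from the median these were 0.815, 0.795 and 0.798. *Pcsk2* and *Pcsk1n* had r = 0.038. *Pcsk2* and *Scg5*, the convertase and its chaperone, had r = 0.577. These values describe 18 points that share libraries and scaling, and carry no test.

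The members were also set against their substrates, as the summed TPM of 25 precursors that yield amidated peptides. This sum was 3034 ± 1353 TPM in ARH (n = 3, 2005 to 4567, led by *Avp*, *Pomc* and *Npy*) and 2704 ± 1812 in PVH, whose libraries were at 1423 and 3985 TPM (led by *Oxt* at 1265). It was 2274 ± 274 in VMH and 1928 ± 465 in LHA, led by *Hcrt* in both (799 TPM in VMH and 1446 in LHA). The paper places *Hcrt* in LHA, and the part of LHA tissue in the VMH punches was not tested. The sum was 1921 ± 353 in ACA (led by *Cck* at 1451), and lowest in UVU at 109 ± 22.6. The ARH and PVH libraries overlapped those of VMH, LHA and ACA, so the order of these 5 regions was not fixed. *Pam*, the enzyme of amidation, followed this sum with r = 0.881 (rho 0.866) and 0.877 without ARH and UVU, and without Pam-208 with r = 0.844. *Pcsk2* had r = 0.826 (0.880 without these regions), *Cpe* 0.772, *Pcsk1* 0.769 and *Scg5* 0.762. *Pcsk1n* was lowest at 0.456, and 0.264 without ARH and UVU. With all 36 listed precursors summed, amidated or not, *Pam* had r = 0.863, and 0.865 without Pam-208. The larger sum contains the 25 amidated precursors, and the other precursors were not set against *Pam* alone. Whether *Pam* followed the amidated precursors in particular was therefore not tested. Against the summed neuronal markers, *Pcsk2* had r = 0.002 and *Pcsk1n* −0.652.

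**Figure D5:**
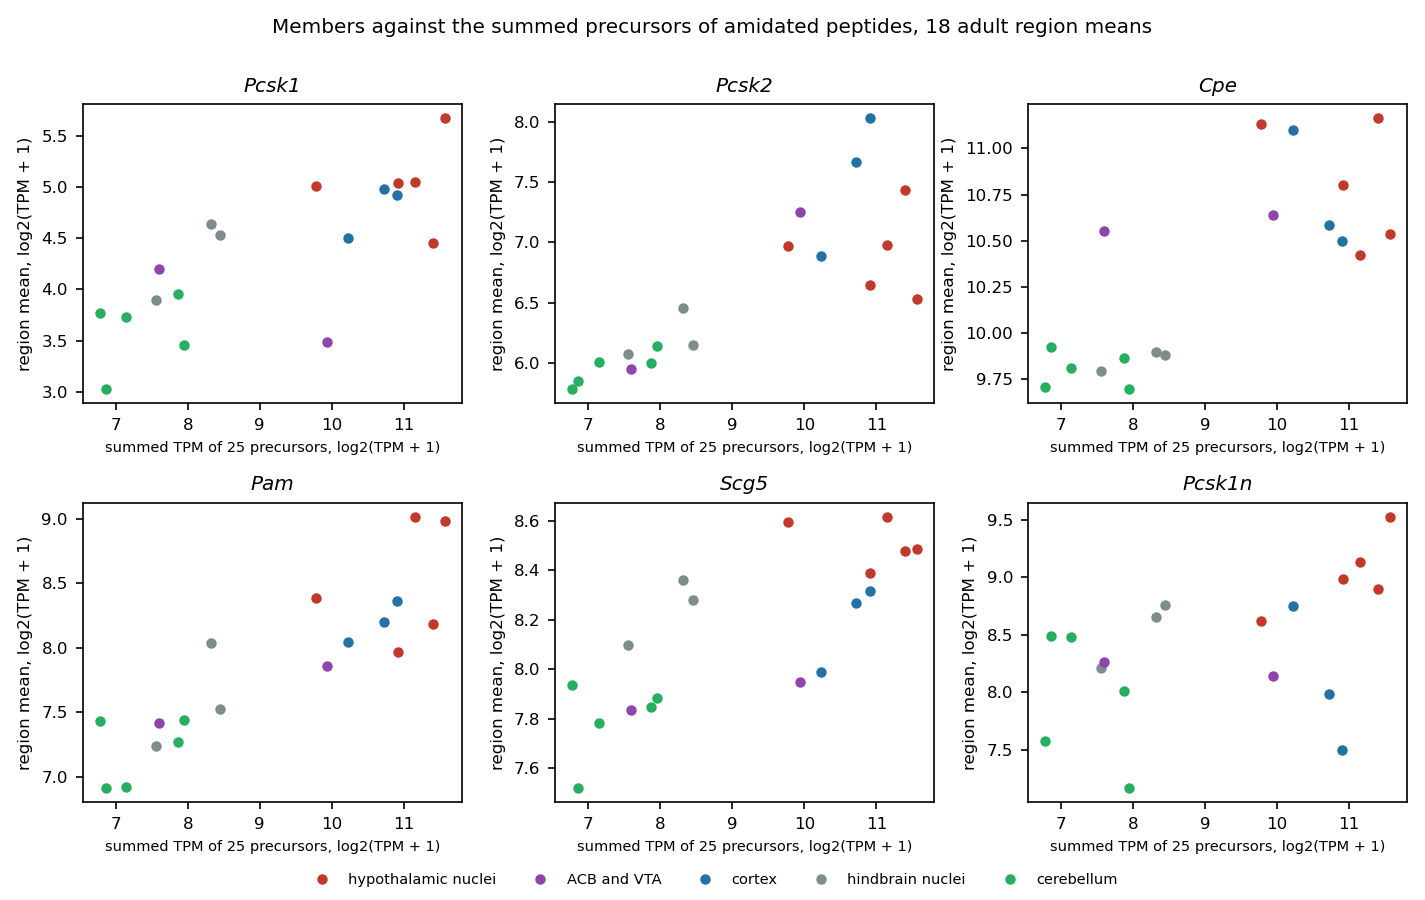
Region means of each of the 6 genes against the summed TPM of 25 precursors of amidated peptides, both as log2(TPM + 1), with 1 point for each of the 18 adult regions. *Pam* lies closest to a line (r = 0.881) and *Pcsk1n* is the most scattered (r = 0.456).

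The genes most like each member over the same 18 regions, among 15504 genes with a mean of at least 1 TPM, were *Tnr* (r = 0.964), *Epha4* and *Dnajc30* for *Pcsk2*, *Usp22* (0.965), *Asb1* and *Tub* for *Pam*, and *Tsr2* (0.957), *Moap1* and *Ppp1r26* for *Scg5*. They were *Gng2* (0.919), *Ppp1r11* and *Ppp1r26* for *Pcsk1*, *Cpne7* (0.926), *Cox6a2* and *Rab3c* for *Cpe*, and *Smco4* (0.896), *Cbln4* and *Gm1673* for *Pcsk1n*. Other members were set aside before this ranking. Of the genes named none was a listed substrate, and the same gene, *Ppp1r26*, was named for *Pcsk1* and *Scg5*.

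Other genes of the pathway were read by lists. Of 7 other proprotein convertases, such as furin, 0 were called in either direction between the hypothalamus and the other adult regions (edgeR; median log2 fold change −0.25). Of 15 further peptide-maturation enzymes 1 was called, *Qpct* (1.73), which forms N-terminal pyroglutamate. Of 17 granins and dense-core vesicle proteins 3 were called higher: *Resp18* (2.29), *Scg2* (1.60) and *Vgf* (1.41). Of 24 amidated precursors 14 were called higher and 1 lower (median 1.57), with *Avp* at 9.77, *Oxt* at 9.26, *Hcrt* at 7.97 and *Vip* at −1.88, and of 10 other precursors 7 were called higher (median 1.63), led by *Pmch* at 9.62. Of all genes 6.11% were called higher and 2.74% lower, with a median of 0.00. The members' median was 0.69, with 1 of 6 called. *Npy* was at 0.07 (edgeR adjusted p = 0.818), *Pomc* at 2.05, *Agrp* at 1.37 and *Trh* at 6.56.

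With age 13 of 17 granins were called higher in the adult than in the embryonic hypothalamus and 0 lower (median 1.38). They were led by *Vgf* (5.26), *Resp18* (3.39) and *Ptprn* (3.29). Of the members 6 of 6 were called higher (median 2.36). Of all genes 20% were called higher and 18.2% lower, with a median of 0.00. Of the other convertases 2 of 7 were called higher (*Pcsk6* at 2.53 and *Pcsk4* at 2.04), and of the other enzymes 3 were called higher (*Qpct* 2.62, *Ctsb* 1.97, *Cpq* 1.21) and 3 lower (*Cpz* −3.42, *Pgpep1* −1.56, *Prep* −1.32). Amidated precursors were called higher in 14 of 24 and lower in 2, *Pomc* (−2.14) and *Calca* (−1.34). Among precursors with products that are not amidated, those called higher were led by *Pmch* (4.98), *Cartpt* (3.29) and *Pdyn* (2.73), and no gene was called lower. Between embryonic brain and stem cells 15 of 17 granins were called higher (median 4.24; *Scg2* at 12.23, *Resp18* at 10.66), beside 5 of 6 members (median 3.75). Of all genes 29% were called higher and 26.8% lower, with a median of 0.00. Among the other convertases *Pcsk5* (2.84) and *Pcsk4* (1.77) were called higher and *Pcsk6* (−3.61) lower.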

How the data were processed

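Poly(A) RNA of 70 pools or cultures was sequenced as strand-specific mRNA libraries with single short reads. Per the labels, base calls were made with CASAVA 1.8.2, and the authors estimated transcript abundance with kallisto on GRCm38. The deposited estimated counts per transcript were not normalized between libraries, and the deposited TPM values, scaled within each library, were summed per gene by the authors. The strand setting of the counting is not given in the sources used here.

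The 6 genes and all lists of other genes were chosen with earlier results of these data known. Transcripts were matched to genes with GENCODE vM21 (107987 of 109282). Counts were summed per gene and rounded, and 0.418% to 0.767% of counts per library fell on unmatched transcripts. Total counts of 9074580 to 22229582 set the precision; the smallest chi-square per gene between libraries of the same group was 2.5, so no pair agreed within counting noise.

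Levels are gene TPM. All 70 libraries were fitted together with 1 term per group by the quasi-likelihood F-test of edgeR (version 4.0.16, under R 4.3.3), after a filterByExpr filter and TMM scaling, with Benjamini-Hochberg adjustment over 19980 genes and a call at adjusted p under 0.05 and more than 2-fold. On simulated data for the hypothalamus against the other adult regions, 185 of the 185 changed genes that were tested were called, with 1 call among unchanged genes. Ratios and transcript shares were compared over region means by exact permutation. Alternatives used DESeq2 1.42.0, limma 3.58.1 on log2(TPM + 0.5) or log2(TPM + 0.1), no filter on low counts, a replicate block, fewer libraries or regions, each library left out in turn, and, chosen after the values were seen, counts and TPM without Pam-208 and the processed transcript of *Pcsk2*. Python 3.11.15 (pandas 2.3.3, SciPy 1.17.1, NumPy 2.4.6) served for the remaining steps and matplotlib 3.10.9 for figures.

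The 6 members are always named. From each list of other genes the text may name up to 3 called genes with the largest fold change in each direction, the substrates *Pomc*, *Npy*, *Agrp*, *Cartpt*, *Oxt*, *Trh* and *Hcrt*, and for each member the 3 genes with the highest r over region means. *Kiss1* and *Ece2* were left out of the tests because their matched transcripts did not sum to the gene TPM, and *Npw* was below the filter. Shared words are the 31-base stretches of a transcript that occur in GENCODE vM21 transcripts of another gene, on either strand. Coordinates are GENCODE vM21 on GRCm38.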

Additional observations from a re-analysis of the deposited data

Results flagged for a closer look

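In 2 of 30 combinations of a member and an adult region with 4 libraries, 1 library stood apart from the rest by Dixon's criterion, which chance meets in about 1 in 20. *Cpe* was at 920 TPM in NTS replicate 2, with the other 3 NTS libraries at 873 to 877 TPM. *Pam* was at 225 TPM in CUL4-5 replicate 4, with the other 3 at 151 to 163 TPM. The call of *Pam* as lower in CUL4-5 held with each of its libraries left out (−1.75 to −1.63 on the log2 scale).

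For 2 members the age change differed between the hypothalamus and the hindbrain by the interaction test of edgeR. *Cpe* rose more in the hypothalamus, by 0.39 on the log2 scale, with leave-one-out values of 0.31 to 0.51. For *Scg5* the difference was −0.30, with a larger rise in the hindbrain, and leave-one-out values ran from −0.48 to −0.10. The *Scg5* pass, at an edgeR adjusted p of 0.0496, was lost with 22 of 30 libraries left out in turn, to −0.10 (edgeR adjusted p = 0.541) without H replicate 1, and with limma on log2(TPM + 0.5) (adjusted p = 0.15).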

How the results depend on the processing

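All 6 members were called for adult against embryonic hypothalamus under each alternative fit, and for the hindbrain under each but limma, where *Pam* was not called. With each library left out in turn both counts were 6, and the count of members called between the hypothalamus and the other adult regions stayed at 1 in all 57 leave-outs. With limma that member was *Pcsk1* in place of *Pam*. Without the cerebellar regions that count was 0, *Pcsk2* turned to −0.07 on the log2 scale, the ratio of *Pcsk1n* to *Pcsk1* turned to 0.10, 1 transcript share (Pam-201) passed in place of 0, and the share of Pam-206 turned to −0.53 points. On estimated counts in place of TPM the share of Pam-206 turned to −0.00533 points.

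Limma moved the median log2 fold change of all genes by −0.11 (pseudocount 0.5) and −0.16 (0.1) for cortex against cerebellar lobules and by 0.17 and 0.25 for embryonic brain against mESC. With limma on log2(TPM + 0.5) or log2(TPM + 0.1), 2 in place of 4 members were called for cortex against cerebellar lobules, 10 in place of 16 pairs of member and region, and, at 0.5, 1062 in place of 1767 genes for the hypothalamus against the other adult regions. *Pam* in embryonic brain against mESC turned to −0.03 with DESeq2 and to −1.41 and −1.42 with limma at 0.5 and 0.1.

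Leaving out 1 library moved the members called for the age change from 0 to 0 or 1 (*Pcsk1n*, −1.43 to −0.50), for embryonic brain against mESC from 5 to between 4 and 5, for the pairs of member and region from 16 to between 15 and 17, and for the transcript shares from 0 to 0 or 1 (Pam-201, 11.8 to 16.4 points). *Pcsk2* in embryonic hypothalamus against midbrain and hindbrain ran from −0.22 to 0.09, with 0.09 without H replicate 2 and 0.04 without THy-PHy replicate 1. Calls near 2-fold were lost for *Pcsk1* in ACB (−0.85 without ACB replicate 1) and CUL4-5 (−0.97 without CUL4-5 replicate 2), *Pcsk1n* in UVU (−0.82 without UVU replicate 3 and −0.98 without UVU replicate 2) and *Pcsk2* in UVU (−0.98 without UVU replicate 1). The cause of these changes was not tested.

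By replicate number, 24 of 57 adult libraries were closest to their own number, and the share expected by chance was not computed. The median correlation was 0.0127 between same-numbered libraries and −0.0057 between others. Running numbers in the sample labels did not follow the replicate numbers across regions. Neither this check nor the replicate block therefore tests the sharing of animals. With a replicate block 1 member in place of 0 was called for the age change (*Pcsk1n*, −1.22), and no other call past both limits changed. At any fold *Pcsk1n* in cortex against cerebellar lobules no longer passed with the block (0.41, edgeR adjusted p = 0.0841). Depth limits *Scg5* and *Pcsk2* in the stem cells, where 4 counts and, without its processed transcript, 10 counts lay behind the values.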
